A study of Drosophila melanogaster with 6 samples.

Results

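The genes described here are 9 activators, caspases and inhibitors of programmed cell death, namely rpr, W, grim, skl, th, Ice, Dcp-1, debcl and Buffy. They were chosen by gene symbol for their place in the pathway, and all 9 were found, each in a single row, among the 11621 genes of the count table. The RNA came from cuticles of Drosophila melanogaster larvae, that is, body walls emptied of internal organs, in which epidermis and skeletal muscle remain. There were 3 control samples from w1118 larvae, which lack a functional white gene, and 3 samples from tumour-bearing larvae. These carried y,w,ey-flp on the first chromosome, act5C>y+>GFP over UAS-RasV12 on the second, and on the third FRT82B,tub-gal80 over FRT82B,scrib1. In them, a recombinase under eyeless control makes clones in the eye disc that lose scrib and express activated Ras and form the tumour, while the body wall was the tissue sequenced. The share of tumour cells in the cuticles was not measured, and of the imaginal disc markers toy rose and eya fell. Control larvae were collected 7 days after egg laying and tumour-bearing larvae 10 days after egg laying. Each sample pooled many cuticles, 40 by the series text, while the methods of the study give another number. Age, genetic background and sequencing lane (each sample had its own lane label) changed together with the tumour and cannot be told apart from it. Controls were raised at 25 degrees, and the labels give no temperature for the tumour-bearing larvae. The methods of the study name larvae with RasV12, scrib1 tumours among those kept below 25 degrees at first and then moved above it. They do not say whether this held for the sequenced larvae, so whether the temperature differed is not known. If it did, it too cannot be told apart from the tumour. The labels do not state whether the samples of a group came from separate cultures, so the p-values speak only of the spread among the samples at hand, and that spread may be technical.

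In flies, cell death by caspases is held in check by inhibitor of apoptosis proteins, chiefly Diap1, the product of th. Cells that are to die transcribe rpr, W (also called hid), grim or skl, whose proteins bind Diap1 and release the caspases it blocks. The initiator caspase Dronc, the product of Nc, assembled on the adaptor Dark, then cleaves the effector caspases encoded by Ice (drICE) and Dcp-1, while debcl and Buffy encode the Bcl-2 family proteins of the fly, described as promoting and opposing death respectively. Larval muscles normally persist until metamorphosis, when steroid-driven cell death removes many of them.

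Both Bcl-2 family genes and the effector caspase gene Ice fell in cuticles from tumour-bearing larvae, and the inhibitor gene th rose, whereas the activators rpr and W and the effector caspase gene Dcp-1 did not separate the groups. Buffy fell by 49.2%, debcl fell by 38.5%, Ice fell by 30.5% and th was 1.57-fold higher. These calls have limits given below. None of the 3 decreases was called when libraries were scaled by total counts alone. The call of th was kept in only 1 of the 6 fits that left out 1 sample. The activators grim and skl had too few counts to be tested. Of the 7 genes tested, 1 was higher, 3 were lower and 3 did not pass (edgeR's quasi-likelihood test with Benjamini-Hochberg adjustment over 10074 genes, threshold 0.05). Over all genes tested, 46.8% were called by the same rule, 2393 genes (23.8%) higher and 2320 lower. The normalized counts of the groups did not overlap for 4 of the 7 genes, against 61.6% of all genes tested. Both counts are near the share of all genes in a comparison in which many genes changed.

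The libraries held 62617114 to 84149121 counts, and values are given as counts scaled to a common library size with TMM factors, which were 0.630 to 0.841 in the control group and 1.33 to 1.44 in the tumour-bearing group. The choice of scaling matters here. The median log2 fold change over all genes was 0.01 with TMM factors and 0.94 with total counts alone, where 61.4% of genes were higher and 6.90% lower. Where a fold change with total counts is set beside this shift of 0.94 below, the comparison largely restates the TMM value. It is no separate support for it. As a check of the labels, the white gene had 2, 0 and 0 counts in control replicates 1 to 3 and 26677, 13614 and 14317 in tumour-bearing replicates 1 to 3, whose genotype also lists w beside several transgenes. All 8 muscle markers were detected in every sample, with summed normalized counts of 2535550 to 10848200 in the control group and 732955 to 1079180 in the tumour-bearing group. Those of 7 haemocyte (blood cell) markers were 27931 to 55255 and 92979 to 263866, and 6 of the 7 rose, while 5 of the 8 muscle markers fell. Of the other marker lists, 0 rose and 2 fell of 7 for epidermis, 0 and 1 of 6 for fat body, 2 and 0 of 5 for neurons, 0 and 1 of 4 for trachea, 1 and 1 of 8 for imaginal discs, and 0 and 3 of 4 for salivary gland. In bulk tissue of this kind, fewer cells of a type and less RNA per cell cannot be told apart, and the part of these shifts in the results below was not tested.

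**Figure D1:**
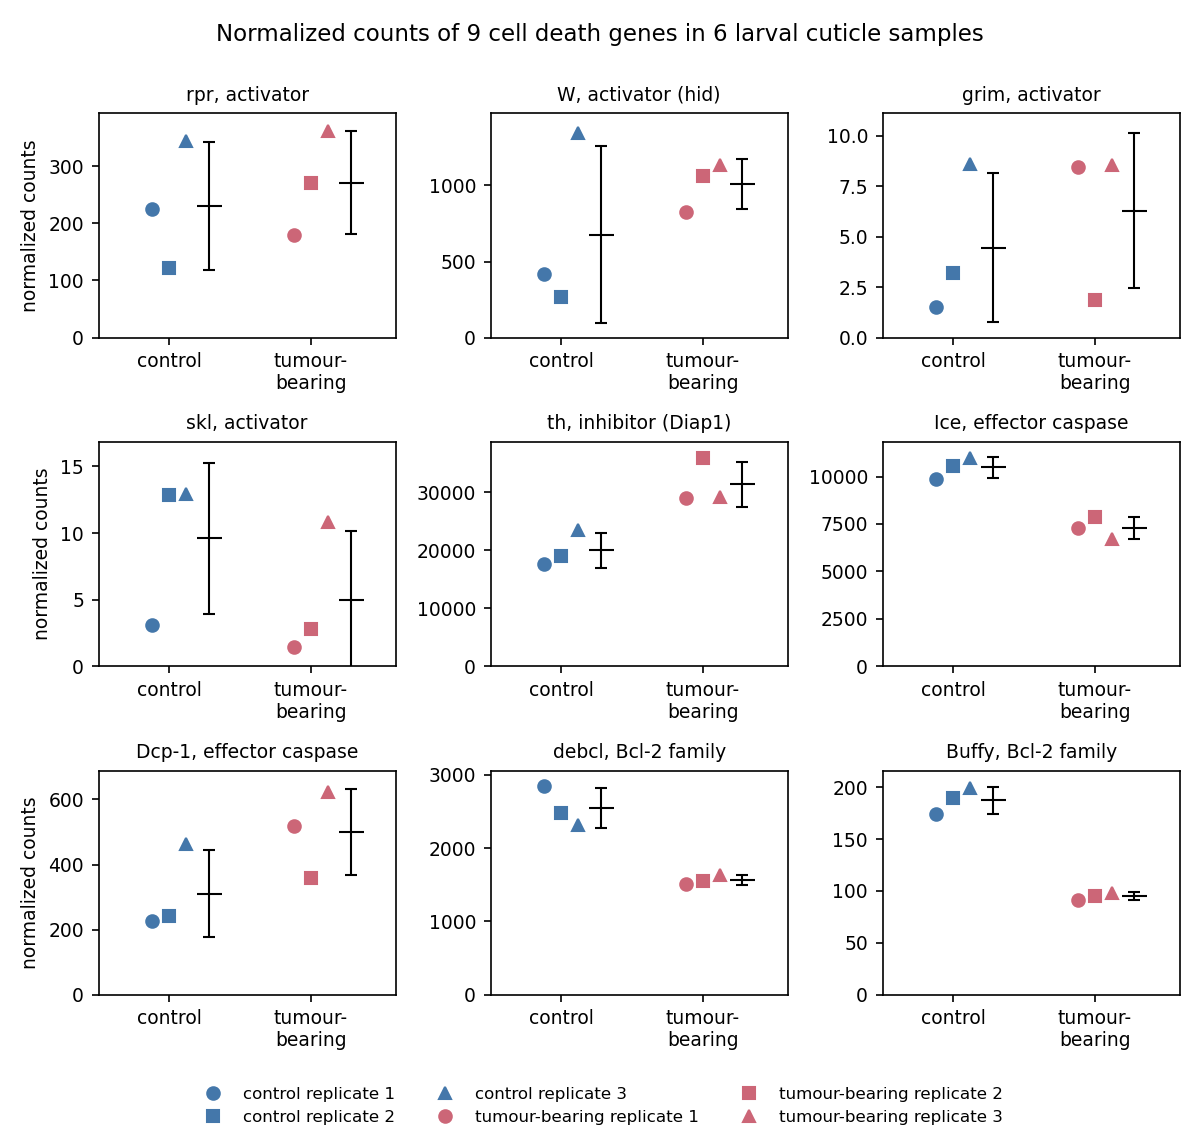
Normalized counts (vertical axes, each from 0) of the 9 genes in 3 control and 3 tumour-bearing cuticle samples, with symbols for the replicate number and bars for the mean and SD (n = 3; the bar of skl in tumour-bearing samples is clipped at 0). The groups are apart for th, Ice, debcl and Buffy, and control replicate 3 lies above the other control samples for W, at 1342 against 415 and 268.

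The 4 activator genes lie in one stretch of chromosome arm 3L, all on the minus strand, and none of them was shown to differ between the groups with all samples. In BDGP6 coordinates, W spans chr3L:18167745-18185641 with 4 exon blocks, grim chr3L:18302719-18304417, rpr chr3L:18397535-18398435 and skl chr3L:18438561-18439942, the last 3 of these with a single exon each. The gaps between them are 117077 bp from W to grim, 93117 bp from grim to rpr and 40125 bp from rpr to skl.

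Reaper, the product of rpr, is the founding member of the group and joins damage, steroid and segment-identity signals to Diap1 removal. Its normalized counts were 225, 122 and 344 in control replicates 1 to 3 and 180.2, 271 and 361 in tumour-bearing replicates 1 to 3. The ranges of the groups overlapped, although control replicate 2 was below every tumour-bearing sample and tumour-bearing replicate 3 above every control. The log2 fold change was 0.23 (standard error 0.44, adjusted p = 0.690 in the quasi-likelihood fit of edgeR), and an interval of 2 standard errors ran from -0.66 to 1.12, within which both a decrease and an increase lie. Its sign turned without control replicate 2 (-0.073) or tumour-bearing replicate 3 (-0.031).

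W encodes Hid, which survival signalling through Ras and MAP kinase restrains in flies, both in its transcription and in its activity. It had 415, 268 and 1342 normalized counts in the controls and 824, 1064 and 1137 in the tumour-bearing group. Control replicate 3 was thus above every tumour-bearing sample, while control replicates 1 and 2 were below them all. With all samples the log2 fold change was 0.57 (standard error 0.60, adjusted p = 0.457, interval -0.62 to 1.77). Without control replicate 3, W was among the genes that rose, with a log2 fold change of 1.54 (adjusted p = 0.00428). In that setting 8 of the 9 genes were tested, and 3 were higher (W, th and Dcp-1) and 3 lower (Ice, debcl and Buffy), beside 25.1% and 24.7% of all genes. That sample also stood apart in ple, which encodes tyrosine hydroxylase of the cuticle tanning pathway, with 1009790 normalized counts against 424 and 850 in control replicates 1 and 2 and 1944 to 11902 in the tumour-bearing group. Whether the 2 differences of control replicate 3 are related was not tested.

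grim and skl encode the remaining proteins of this group and were at the edge of detection. The raw counts of grim were 1, 2 and 8 in the control group and 12, 2 and 11 in the tumour-bearing group. Those of skl were 2, 8 and 12 in the control group and 2, 3 and 14 in the tumour-bearing group. Every sample had at least 1 count of each gene, and the ranges of the groups overlapped for both. Neither passed the filter on low counts. With no filter, edgeR gave a log2 fold change of 0.45 for grim (adjusted p = 0.720) and -0.93 for skl (adjusted p = 0.469). The single exon of grim shares 749 bp with a non-coding gene on the other strand and 541 bp with one on its own strand in the annotation, so its few counts cannot be assigned to grim alone, as the labels name the TruSeq RNA kit in its v2 form, which is not strand-specific.

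th encodes Diap1, the ubiquitin ligase that binds and inhibits Dronc, drICE and Dcp-1, and was the most abundant of the 9 genes per length of exon in both groups. It lies at chr3L:16038410-16051034 on the minus strand, with 6 exon blocks, and shares 347 bp of exon with a non-coding gene on the other strand. The part of that gene's reads in the th counts was not tested. Its normalized counts were 17638, 18991 and 23431 in the control group and 29024, 35901 and 29253 in the tumour-bearing group. Every tumour-bearing sample was above every control sample. The log2 fold change was 0.65 (standard error 0.17, adjusted p = 0.0255 in edgeR). The call was kept without control replicate 3 (adjusted p = 0.00960) and lost without control replicate 1 (0.0849), control replicate 2 (0.0533), or tumour-bearing replicate 1 (0.0581), 2 (0.0895) or 3 (0.0567), with log2 fold changes between 0.54 and 0.76 throughout. With total counts it was 1.56, above the shift of 0.94 in the median of all genes.

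Of the other inhibitors of the family, Diap2 and Bruce were not called, and deterin was not analysed here. Diap2, which inhibits drICE and also acts in the Imd immune pathway, had 4636, 5802 and 4539 normalized counts in the controls and 4655, 4688 and 4704 in the tumour-bearing group (log2 fold change -0.09 with a standard error of 0.12, adjusted p = 0.566), and passed only with total counts (0.86, below the shift of all genes). Its sign was positive without control replicate 2 (0.020) and with upper-quartile factors (0.028). Bruce, a very large protein with an inhibitor repeat and a ubiquitin-conjugating domain, had 20176, 21420.4 and 11773 against 23912, 31816 and 22455 (log2 fold change 0.55 with a standard error of 0.27, adjusted p = 0.145). The groups overlapped for Diap2 and did not for Bruce.

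Ice, which encodes drICE, the principal effector caspase of the fly, fell. It is a single-exon gene on the plus strand at chr3R:29799658-29801584. Its normalized counts were 9880.4, 10566 and 10999 in the control group and 7301, 7874 and 6694 in the tumour-bearing group. The groups did not overlap, and the spread within each was small (coefficient of variation 5.38% and 8.09%). The log2 fold change was -0.52 (standard error 0.11, adjusted p = 0.0129). The call was lost without tumour-bearing replicate 3 (adjusted p = 0.0512), and with total counts the sign turned (0.40, adjusted p = 0.0721), which is below the shift of 0.94 in all genes.

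Dcp-1, a second effector caspase that also acts in starvation-induced autophagy of the ovary, was far less abundant than Ice and more variable. It lies at chr2R:23551313-23553547 on the plus strand, with 3 exon blocks. It had 226, 240.5 and 465 normalized counts in the controls and 518, 360.2 and 624 in the tumour-bearing group. Control replicate 3 was above tumour-bearing replicate 2, so the groups overlapped. The log2 fold change, 0.69 with a standard error of 0.36 (adjusted p = 0.160, interval -0.03 to 1.40), passed without control replicate 3 (1.09, adjusted p = 0.020) and with total counts (1.58, adjusted p = 0.0202). Its exons share 239 bp with pita on the other strand, a gene of 2661 to 3375 normalized counts in the controls and 3850 to 4117 in the tumour-bearing group that itself rose (log2 fold change 0.44, adjusted p = 0.0268). The part of reads from pita in the Dcp-1 counts was not tested.

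Both Bcl-2 family genes fell, with the narrowest spread within groups of the 9 genes in the tumour-bearing group. debcl, described as promoting death, lies at chr2R:6648654-6652842 on the plus strand, with 3 exon blocks. It had 2844, 2480.3 and 2313 normalized counts in the controls and 1506, 1556 and 1631 in the tumour-bearing group. The log2 fold change was -0.70 (standard error 0.11, adjusted p = 0.00433). Buffy, described as opposing death, lies at chr2R:11679492-11688557 on the plus strand, with 5 exon blocks. It had 174, 189 and 199 normalized counts in the controls and 91.5, 95.6 and 98.5 in the tumour-bearing group. The log2 fold change was -0.98 (standard error 0.21, adjusted p = 0.0114). For both genes the groups were well apart, and both calls were kept without any single sample. With total counts neither was called (0.24 for debcl and -0.05 for Buffy), both again below the shift of all genes.

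**Figure D2:**
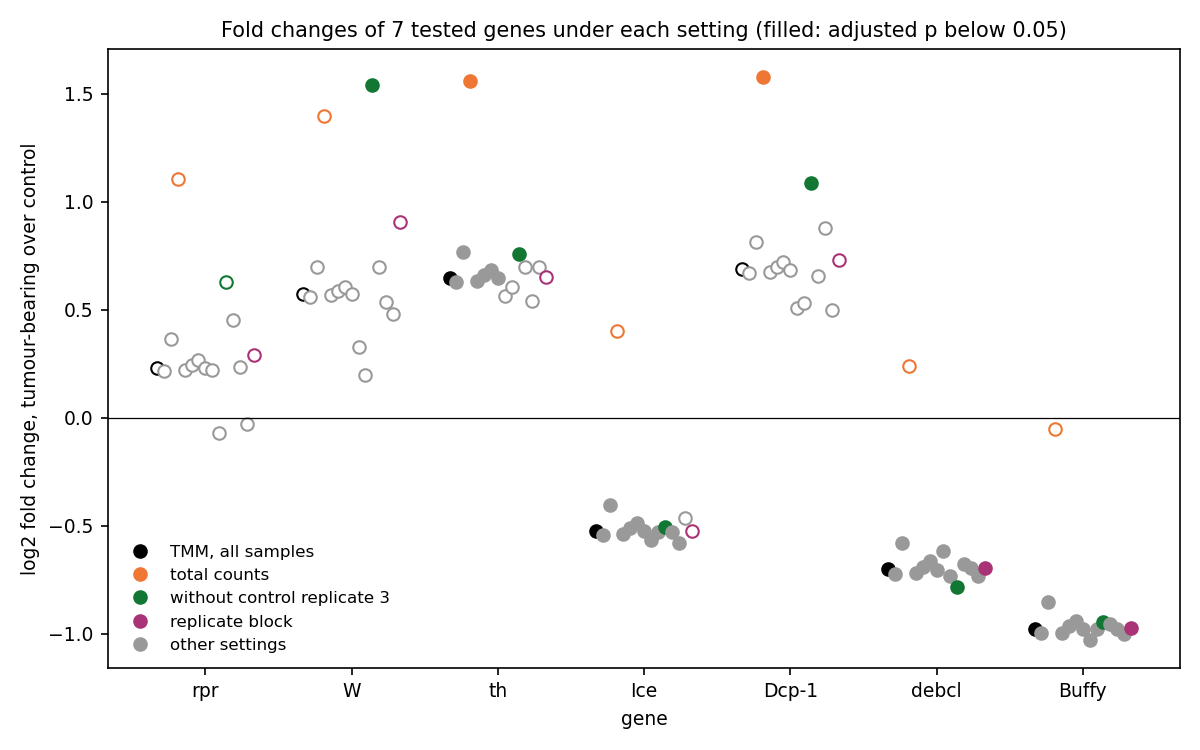
Log2 fold changes (vertical axis, tumour-bearing over control) of the 7 tested genes with TMM scaling and all samples and under each alternative, filled where the adjusted p was below 0.05. Ice and debcl are below 0 except with total counts (0.40 and 0.24), Buffy is below 0 throughout, and W is called only without control replicate 3 (1.54).

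Per kb of exon, a scale that allows genes to be compared, th and Ice formed the upper level, debcl the middle and the others the low level. In the control group th (6370 normalized counts per kb, SD 964) and Ice (5439, SD 293) overlapped, followed by debcl (1477). Then came rpr (255), Buffy (181), Dcp-1 (177) and W (168), each of which overlapped its neighbour, and last skl (6.96) and grim (2.62). In the tumour-bearing group the order was th (9988), Ice (3783), debcl (908), rpr (301), Dcp-1 (286), W (251), Buffy (91.7), grim (3.69) and skl (3.62). There th, Ice and debcl were each apart from the next gene, rpr, Dcp-1 and W overlapped, and Buffy lay below all 3 of these. The level of th was higher than that of 91.6% of the 9675 tested genes with an annotated exon length in the control group and 95.9% in the tumour-bearing group. The corresponding percentages for rpr were 33.4% and 34.8%, and for W 28.4% and 32.1%.

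Ratios between genes within a sample do not depend on how libraries are scaled. The ratio of Ice to th per kb of exon was 0.914, 0.907 and 0.766 in the control group and 0.410, 0.358 and 0.373 in the tumour-bearing group. The groups were apart, and the mean log2 ratio was lower by a log2 difference of -1.18 (SD 0.14 and 0.10, n = 3 each). The ratio of Diap2 to th was lower as well, at 0.387, 0.450 and 0.285 against 0.236, 0.192 and 0.237 (log2 difference -0.74). The ratio of Dcp-1 to Ice was higher, at 0.0252, 0.0251 and 0.0465 against 0.0781, 0.0504 and 0.103 (log2 difference 1.26), with control replicate 3 close to tumour-bearing replicate 2. These 3 ratios did not overlap between the groups. For Ice to th this follows from the separate ranges of both genes given above. Diap2 itself was not called (log2 fold change -0.09), so its ratio largely restates the rise of th.

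The balance of activators to th did overlap. The 4 activators together had 0.0634, 0.0353 and 0.0979 of the th level per kb in the control group and 0.0445, 0.0498 and 0.0749 in the tumour-bearing group (log2 difference -0.13, and 0.084 without the correction for exon length). For W alone the ratio to th was 0.0184, 0.0110 and 0.0448 against 0.0222, 0.0232 and 0.0304 (log2 difference 0.26), and for Dcp-1 it was 0.0230, 0.0228 and 0.0356 against 0.0320, 0.0180 and 0.0383 (0.08). The ratio of debcl to Buffy was 9.85, 7.89 and 6.98 against 9.91, 9.81 and 9.97 (0.28), also overlapping. No test was made on the ratios, which are given as a description.

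**Figure D3:**
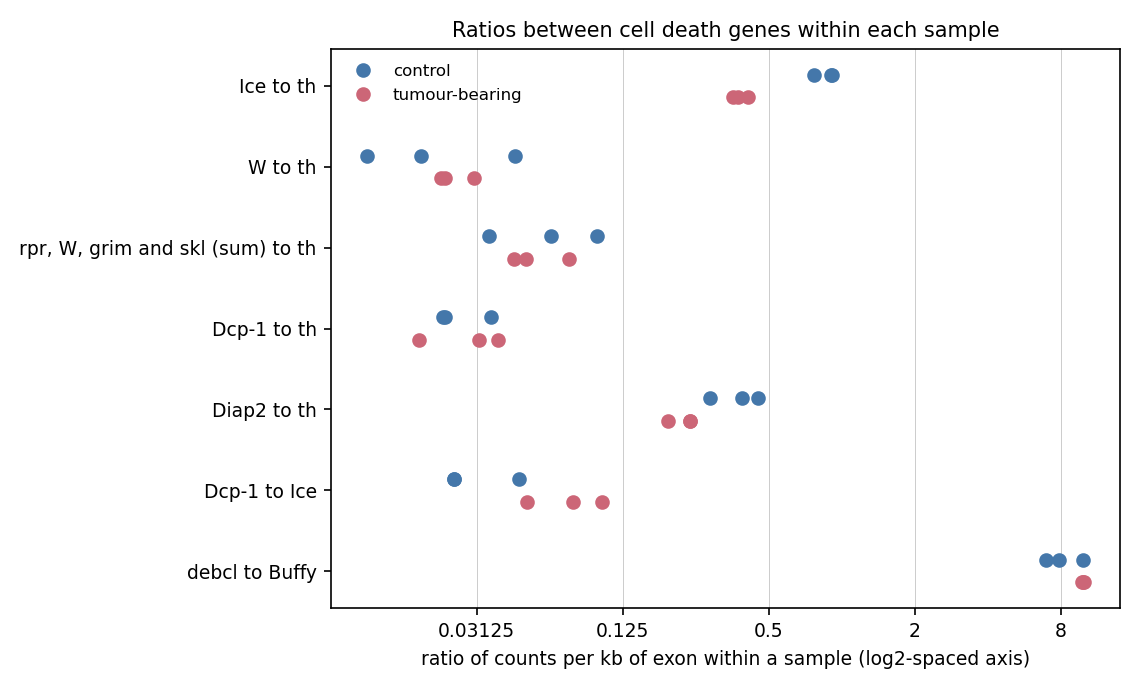
Ratios of counts per kb of exon between cell death genes within each sample (horizontal axis, log2-spaced), with 1 point per control or tumour-bearing sample. Ice to th lies between 0.766 and 0.914 in the control group and between 0.358 and 0.410 in the tumour-bearing group, whereas the activators to th overlap.

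Over the 6 samples, the genes whose mean-centred log2 values lay nearest to those of th were Ndfip, CG9894 and cp309 (Euclidean distances 0.11, 0.15 and 0.15). Nearest to Buffy were CG15201, tsr and eap (0.09, 0.12 and 0.20). This describes likeness over 2 groups of 3 libraries only.

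Beyond the 9 genes, 75 other genes of cell death and its inputs were tested, of which 30 were higher, 14 lower and 31 not called, with a median log2 fold change of 0.31 against 0.01 for all genes, of which 46.8% were called. With total counts 58 were higher and 1 lower, beside 61.4% and 6.90% of all genes, and without tumour-bearing replicate 2 or 3, 9 were lower. In these last fits 1380 of 10263 and 1600 of 10181 of all genes were lower. Among 7 initiator caspases and apoptosome genes, 1 rose, 3 fell and 3 did not pass (3 higher and 0 lower with total counts). Strica, a caspase with a long prodomain, fell from 2046 to 2119 normalized counts in the control group to 981 to 1050 in the tumour-bearing group (log2 fold change -1.03 with a standard error of 0.08, adjusted p = 0.000790). Dredd, the caspase of the Imd immune pathway, fell likewise (-0.80, standard error 0.09, adjusted p = 0.00186). Both calls were lost with total counts, where the sign of Dredd turned (0.13). The initiator caspase gene Nc had 5156, 3827 and 11607 against 3811, 3780 and 3572 normalized counts, with no overlap but control replicate 3 far above the rest (-0.88, standard error 0.41, adjusted p = 0.126). It was called without control replicate 2 and was at -0.29 without control replicate 3. The gene that rose was Cyt-c-d, the cytochrome c used by sperm in caspase activation, from 48.5 to 335 normalized counts up to 1771 to 2276 (3.60, standard error 0.71, adjusted p = 0.00942). Dark, the adaptor, was not analysed here. The effector caspase gene decay had at most 22.5 normalized counts in any sample and was not called (1.47, adjusted p = 0.116), and Damm had at most 10.1 and was not tested.

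Of 7 genes that antagonise inhibitor proteins or take part in their turnover, 0 rose and 3 fell with TMM, whereas with total counts 4 were higher and 0 lower. The 3 of 7 called are near the 46.8% of all genes. Without tumour-bearing replicate 3 none of the 7 was lower, and without tumour-bearing replicate 1 or 2 the number was 1. Fewer of all genes were lower there too. These were 1600 of 10181 without tumour-bearing replicate 3, 1619 of 10253 without replicate 1 and 1380 of 10263 without replicate 2, against 2320 of 10074 with all samples. Those with the largest decreases were Ubr3, a ubiquitin ligase that binds Diap1 (-0.58, standard error 0.13, adjusted p = 0.0136, lost without tumour-bearing replicate 3), and eff, a ubiquitin-conjugating enzyme (-0.47, standard error 0.13, adjusted p = 0.0272, lost without control replicate 1 or any tumour-bearing sample). With total counts both signs turned (0.35 and 0.46). Of 7 nuclease and late factors, 3 rose and 0 fell, beside 23.8% of all genes higher. Without tumour-bearing replicate 1 or 2, 1 of the 7 rose, where 17.8% and 16.3% of all genes were higher, so that number is near the share of all genes. Drep1, the inhibitor of the caspase-activated nuclease, had 265 to 363 normalized counts in the controls and 875 to 1063 in the tumour-bearing group (1.63, standard error 0.16, adjusted p = 0.00122). Drep2, a related gene of the nervous system, was called only narrowly (0.70, adjusted p = 0.0485) and in none of the fits that left out 1 sample.

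Genes for the engulfment of dead cells mostly rose, with 9 of 12 higher, 1 lower and 2 not called (11 and 0 with total counts), and a median log2 fold change of 0.62, beside 23.8% of all genes higher with TMM. Without tumour-bearing replicate 1 or 2, 5 of the 12 were higher, where 17.8% and 16.3% of all genes were, and without control replicate 1, 6 were, beside 17.0% of all genes. NimC4, a receptor for apoptotic cells on haemocytes and glia, had 0 counts in each control sample and 2249 over the tumour-bearing group, which against a floor of 3 counts summed over the controls is at least 435-fold higher. In the tumour-bearing group it ranged from 177 to 1338 normalized counts. mbc, the exchange factor that activates Rac in engulfment and in myoblast fusion, rose from 3647 to 5083 up to 14425 to 18314 (1.93, standard error 0.18, adjusted p = 0.00104). Rac1 fell (-0.53, standard error 0.10, adjusted p = 0.00746), but with total counts the call was lost and the sign turned (0.40). Haemocytes express several of these genes, and their markers moved the same way as given above. Their part in this result was not tested.

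Among the inputs, 7 of 9 TNF and JNK genes rose and 1 fell, and with total counts 9 were higher, where 23.8% and 61.4% of all genes were higher in the respective fits. The ligand egr rose from 684 to 837 normalized counts up to 1346 to 1614 (1.02, standard error 0.13, adjusted p = 0.00233) and its receptor wgn from 2239 to 3911 up to 8012 to 9504 (1.54, standard error 0.22, adjusted p = 0.00332), whereas the receptor grnd had 3316 to 3914 against 3498 to 4390 (0.13, adjusted p = 0.441). puc, a phosphatase that JNK induces and that feeds back on it, rose as well (1.18, standard error 0.25, adjusted p = 0.0112). bsk, the JNK gene itself, fell (-0.37, standard error 0.09, adjusted p = 0.0159). That call was kept only without control replicate 2 or control replicate 3 among the fits that left out 1 sample, and with total counts it was called higher (0.56, adjusted p = 0.0113). Of 8 genes of p53 and DNA damage, which can induce rpr and skl in flies, 5 rose and 1 fell (7 and 0 with total counts). lok, the Chk2 kinase, rose by 1.59 on the log2 scale (standard error 0.23, adjusted p = 0.00374), and tefu, the ATM kinase, by 1.10 (standard error 0.11, adjusted p = 0.00126). grp, the Chk1 kinase, fell (-1.45, standard error 0.21, adjusted p = 0.00360), although not with total counts (-0.55).

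Steroid inputs, several of which are needed for rpr and W transcription in dying larval salivary glands, were lower in 3 of 7 cases and higher in 1 (1 lower and 3 higher with total counts), which is near the 46.8% of all genes called. br fell from 57700.3 to 109968 normalized counts in the control group to 6565 to 7736 in the tumour-bearing group (-3.59, standard error 0.28, adjusted p = 0.000771), and Eip74EF from 24068 to 45532 to 9839 to 12900.4 (-1.50, standard error 0.29, adjusted p = 0.00875, lost with total counts). ftz-f1 rose (1.71, standard error 0.33, adjusted p = 0.00914). Of 15 survival inputs, 4 rose, 2 fell and 9 did not pass (13 higher and 0 lower with total counts, 2 higher without tumour-bearing replicate 2, and 1 lower without any 1 sample). Myc, a growth regulator, rose (2.30, standard error 0.24, adjusted p = 0.00141), as did pnt, a transcription factor of the Ras and MAP kinase route (1.99, standard error 0.18, adjusted p = 0.00104). sav, a scaffold of the Hippo kinases, fell (-0.45, standard error 0.09, adjusted p = 0.00863), but was called higher with total counts (0.48, adjusted p = 0.0310), and phl, the Raf kinase, was called only narrowly (-0.27, adjusted p = 0.0484) and in no fit that left out 1 sample, and was called higher with total counts (0.66, adjusted p = 0.00658).

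**Figure D4:**
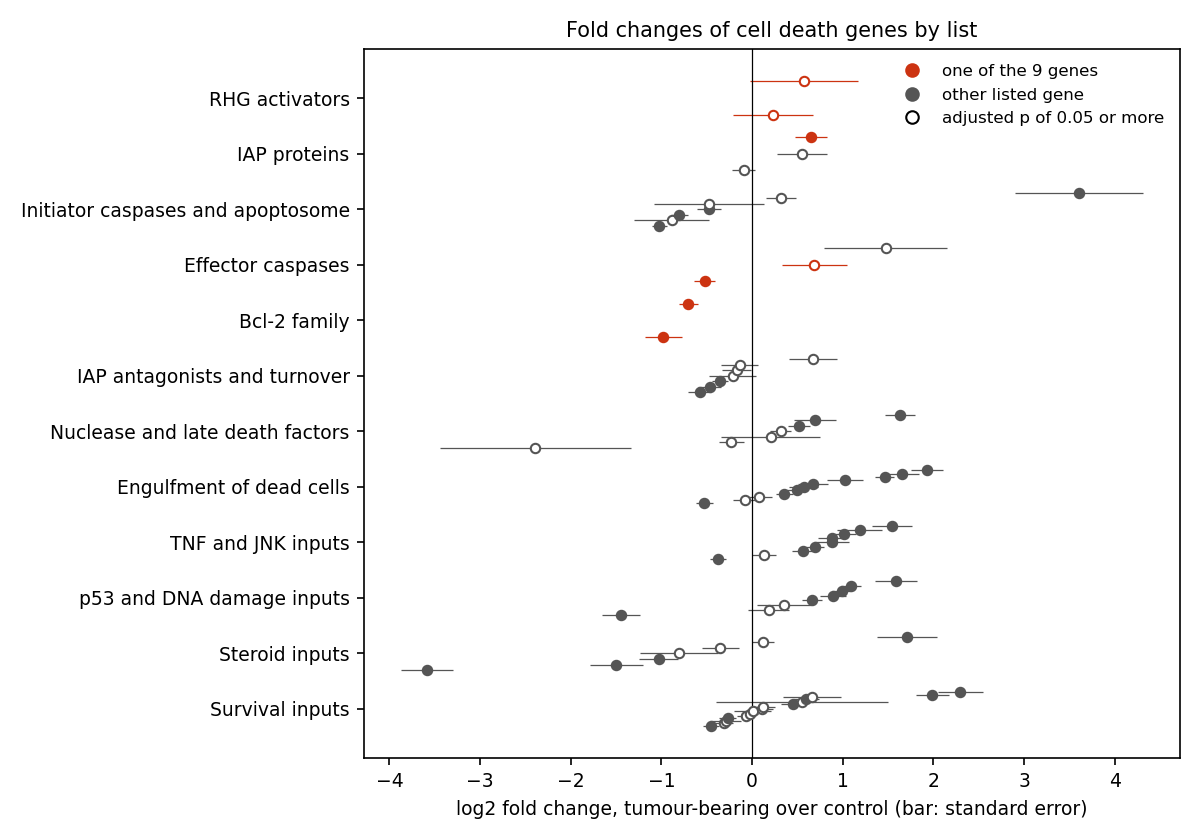
Log2 fold changes (horizontal axis, tumour-bearing over control, with standard errors) of cell death genes by list, filled where the adjusted p was below 0.05, with TMM scaling and all samples. NimC4 is left out because its control samples were at 0. Most engulfment genes (8 of the 11 drawn) and TNF and JNK genes (7 of 9) are filled on the right, and both Bcl-2 family genes on the left.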

How the data were processed

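RNA was sequenced from cuticles in 3 control and 3 tumour-bearing samples, grouped by the genotype in the labels. The deposited table covers 11621 genes, and its raw counts per gene and sample, made by the authors, were the only values used. According to the submitters' processing notes the build was BDGP6, and the tools were TopHat, Bowtie, HTSeq, DESeq2, bcl2fastq and FastQC in versions not given in the sources used here. A further 6 columns of normalized values and the authors' own fold changes and p-values were not used. The columns were assigned by the sample titles in their names.

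The counts were fitted in edgeR 4.0.16 (R 4.3.3) with filterByExpr, TMM factors and the robust quasi-likelihood test, with Benjamini-Hochberg adjustment over 10074 genes and a threshold of 0.05. Standard errors were obtained from the log2 coefficient and the F statistic. The procedure was tested on simulated counts with a common dispersion and a set of changed genes. That test does not bear on the choice of scaling in these data. Normalized counts are counts over the TMM-scaled library size, multiplied by its mean over samples. Exon lengths and positions came from the Ensembl annotation of BDGP6. The 12 pathway lists and 8 marker lists, like the 9 genes, were chosen with earlier results of these data known. Of 141 listed entries, 4 are not analysed here and 8 were matched through a current symbol (for example Diap2, listed as Iap2). Named are the 9 genes, fixed core partners, up to 2 called genes of each list and direction, and the nearest genes of 2 members. Outside that rule, decay and Damm are named as the remaining effector caspases listed, and the white gene for the check of the labels. ple, pita, aop, toy and eya were added after their values were seen. DESeq2 1.42.0 was an alternative. The bound for a group at 0 uses 3 counts over the group and covers counting error only. No sequences are printed.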

Additional observations from a re-analysis of the deposited data

How the results depend on the processing

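In all, 14 alternatives were run for the fits. With total counts, 2 of the 9 genes were higher and 0 lower, 58 of the other cell death genes were higher and 1 lower, and Ice (0.40) and debcl (0.24) changed sign on the log2 scale. Of all genes, 61.4% were higher and 6.90% lower with total counts. With upper-quartile factors 9 of the other genes were lower, beside 1899 of all 10074 genes. Leaving out 1 sample gave 0 to 3 of the 9 genes higher, 9 to 15 of the other genes lower, 3055 to 5138 genes called in all, and a log2 fold change of -0.073 to 0.63 for rpr, which was also below 0 without tumour-bearing replicate 3 (-0.031). The lowest total of genes called came without tumour-bearing replicate 2, where 1675 of all genes were higher and 1380 lower. The highest came without control replicate 3, with 2590 higher and 2548 lower. The same omissions moved the log2 difference of within-sample ratios between -0.20 and 0.81 for W to th, between -0.52 and 0.22 for the 4 activators to th, and between -0.14 and 0.40 for Dcp-1 to th. With the replicate block, 0 of the 9 genes were higher and 2 lower, and 9 of the other genes were lower. In that fit 1907 of all 10074 genes were higher and 1665 lower, against 2393 and 2320 without the block. Same-numbered samples had correlations of -0.053, 0.065 and 0.111 between their deviations from the group means, so the replicate numbers were not taken as pairs. RLE factors, DESeq2, no filter, at least 10 counts in every sample and leaving out the 20 most abundant genes kept 1 of the 9 genes higher and 3 lower. Depth limits grim and skl, which had at most 14 counts in any sample.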

Other observations

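Control replicate 3 stood apart from the other control samples in many genes, cell death genes among them. Of the 10074 genes tested, 840 were more than 2 times above both other control samples in it and 546 were more than 2 times below both (13.8% together), against 3.71% for control replicate 1 and 6.03% for control replicate 2 in the same comparison. Of the 9 genes, 7 were tested, and this was so for W only (14.3%, near the share of all genes). Among the 75 other cell death genes it was so for 4 above and 2 below (8.0%, less than the share of all genes). aop, a repressor in the Ras and MAP kinase route, had 1437, 1209 and 13567 normalized counts in control replicates 1 to 3 and 7524 to 8645 in the tumour-bearing samples. Its log2 fold change was 0.55 with all samples (adjusted p = 0.658 in edgeR) and 2.56 without control replicate 3 (adjusted p = 0.000167).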
